A study of Mus musculus with 4 samples.

Results

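The ribosomal protein paralogs Rpl22l1, Rpl7l1, Rps27l, Rpl39l, Rpl3l and Rpl10l were examined in the rOvaries, the ovarian grafts that form when primordial germ cells are aggregated with embryonic gonadal somatic cells and placed under the kidney capsule. The 6 genes were chosen by name, as variant or tissue-restricted copies of cytosolic ribosomal proteins, and all 6 were found among the 54021 gene symbols of the count table. The donor germ cells expressed actin-GFP, the recipients of all libraries were second-generation (G2) Terc-/- mice aged 2 to 3 months, which lack telomerase RNA, and the grafts were taken 4 weeks after transplantation. The INK128 group (2 libraries, replicates 1 and 2) came from recipients given INK128, an inhibitor of the mTOR kinase, at 30 μM in the drinking water, which the study equates to 1.8 mg/kg/day and the labels give as 0.75 μM per g. The control group (2 libraries, replicates 1 and 3) came from recipients without INK128. How many grafts went into each library was not stated in the sources used here, so the p-values measure the spread between these libraries, which may be technical.

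Most cytosolic ribosomal proteins are encoded by a single active gene that is used in every cell. A few have a second gene, or paralog, whose protein can take the place of the usual subunit or has moved to another task. The mRNAs of the usual ribosomal proteins start with a stretch of pyrimidines through which mTOR controls their translation, and read counts measure the amount of these mRNAs and not their translation. RPL22L1 can stand in for RPL22, which represses the Rpl22l1 mRNA in mouse cells. RPL7L1 is related to RPL7 and acts in the maturation of the large subunit. RPS27L is a near copy of RPS27, and its gene is known as a target of p53. RPL39L and RPL10L are used in male germ cells, where RPL10L replaces the product of the X-linked gene Rpl10, and RPL3L replaces RPL3 in skeletal and heart muscle.

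Rps27l and Rpl39l, with their parents, show how near these copies are to their parents in protein and how far apart in the sequence that reads are matched to. The coding sequences below come from the principal transcripts of GENCODE M21 (GRCm38, the build called mm10), 5′ to 3′, with the bases that differ within a pair in capitals. Rps27l lies at chr9:66946086-66949516 on the plus strand and Rps27 at chr3:90212522-90213651 on the minus strand.
Rps27l: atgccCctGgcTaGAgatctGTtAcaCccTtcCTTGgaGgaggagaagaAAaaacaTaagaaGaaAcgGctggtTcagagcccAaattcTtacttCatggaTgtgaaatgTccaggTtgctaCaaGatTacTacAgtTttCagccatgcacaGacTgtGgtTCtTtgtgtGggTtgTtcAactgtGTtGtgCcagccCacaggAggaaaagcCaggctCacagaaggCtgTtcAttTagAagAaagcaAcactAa
Rps27: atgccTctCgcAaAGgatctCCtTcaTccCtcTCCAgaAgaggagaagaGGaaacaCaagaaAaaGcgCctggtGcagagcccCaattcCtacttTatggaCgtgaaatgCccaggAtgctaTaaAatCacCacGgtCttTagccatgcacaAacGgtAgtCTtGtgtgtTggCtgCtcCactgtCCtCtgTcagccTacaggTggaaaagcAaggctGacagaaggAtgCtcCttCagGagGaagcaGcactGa
Rpl39l lies at chr16:10170226-10174911 on the plus strand and Rpl39 at chrX:37082520-37085402 on the minus strand.
Rpl39l: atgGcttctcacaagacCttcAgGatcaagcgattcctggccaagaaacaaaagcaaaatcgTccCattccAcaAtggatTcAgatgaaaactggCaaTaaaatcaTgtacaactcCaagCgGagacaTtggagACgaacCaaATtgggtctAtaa
Rpl39: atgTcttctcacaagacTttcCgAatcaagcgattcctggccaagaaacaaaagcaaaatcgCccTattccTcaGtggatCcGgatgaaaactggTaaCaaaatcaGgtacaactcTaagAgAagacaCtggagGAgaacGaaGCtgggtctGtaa

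In the first pair, 61 of 255 bases differed but only 3 of 84 encoded residues. In the second, 23 of 156 bases and 3 of 51 residues differed. RPL10L also differed from RPL10 at 3 of 214 residues, while its coding sequence was 84.8% identical. RPL3L and RPL22L1 were further from their parents, with 76.0% and 70.3% identical residues, and RPL7L1 was the most distant at 40.7%. No paralog shared a window of 50 bases with its parent's transcript, so reads of that length that match without error separate each pair. Rps27 itself cannot be separated in this way from Rps27rt, a retrogene with the same coding sequence.

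Other genes did share sequence with the paralogs, and of the 6 most of all with Rpl22l1. For Rpl22l1, 65.6% of 50-base windows also occurred in 4 other annotated genes, against 22.4% for Rps27l, 9.19% for Rpl7l1, 7.60% for Rpl10l, and 0% for Rpl39l and Rpl3l. At 100 bases the shares were 50.8% for Rpl22l1, 1.68% for Rpl7l1 and 0% for the other 4. The parents shared more, with 98.6% of 50-base windows for Rps27, 85.6% for Rpl3, 85.4% for Rpl10 and 53.3% for Rpl7, then 16.5% for Rpl39 and 5.19% for Rpl22, and their counts are the other side of each pair compared further on. The read length and the handling of reads with several matches were not given in the sources used here. None of the 6 paralogs began, at its RefSeq start, with a C followed by at least 4 further C or T bases on the transcribed strand. Such a start was found in 14 of the 58 core ribosomal protein genes with an entry (24.1%) and in 3.01% of all genes, and its absence in a window says nothing about regulation.

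The libraries held 19130209 to 23029089 counts. CPM are counts scaled to each library's total over the 11758 genes of the main test, with TMM factors of 0.94 to 1.05. A floor of 3 counts stood at 0.13 to 0.165 CPM. The controls differed from each other in their cell markers. Control replicate 1 held 1021 counts of 4 Y-linked genes against 0 to 2 elsewhere, and its 7 Sertoli cell markers, the supporting cells of the testis, summed to 1797 CPM against 77.4 to 170. In control replicate 3 the 15 oocyte markers summed to 75.4 CPM against 1145 to 1618. Markers of the kidney, the site of the graft, summed to 686 and 1524 CPM in controls and to 95.7 and 173 CPM with INK128. All 12 tested were lower in both INK128 libraries, against 34.0% of all genes, and 7 were called lower by edgeR, against 3.19%. Markers of immune cells summed to 353 and 556 CPM in controls and to 212 and 209 CPM with INK128, and 5 of the 6 tested were lower in both INK128 libraries, against 34.0% of all genes. The part of these cells in the results below was not tested. Granulosa cell markers, which define the follicles, ranged from 3922 to 9360 CPM. A lower share of a cell type and less RNA per cell cannot be told apart in such samples, and a result that rests on a single library is also given without it.

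The paralogs fell into 3 levels. Rpl22l1, Rpl7l1 and Rps27l had a mean above 10 CPM and entered the test over 11758 genes. Rpl39l, at a mean of 2.29 CPM, was tested only in a second fit over the 17631 genes above 1 CPM. These means and limits are of plain CPM, without TMM factors. Rpl3l and Rpl10l had too few counts to test. In all 4 tested paralogs both INK128-treated rOvaries lay above both controls, but none was a DEG by edgeR's quasi-likelihood test, for which the adjusted p had to be below 0.05 and the change over 1.5-fold. Of the 11758 genes, 3.18% were called higher in this way, and 34.5% had both INK128 libraries above both controls. Of the 3 paralogs above 10 CPM, 2 had an unadjusted p below 0.05, against 17.7% of all genes tested on the higher side, and 2 were called by DESeq2, which called 13.6% of all genes higher. In the second fit no gene at all was called (0.0% higher), though 5797 had an unadjusted p below 0.05, and 30.9% did not overlap on the higher side.

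**Figure D1:**
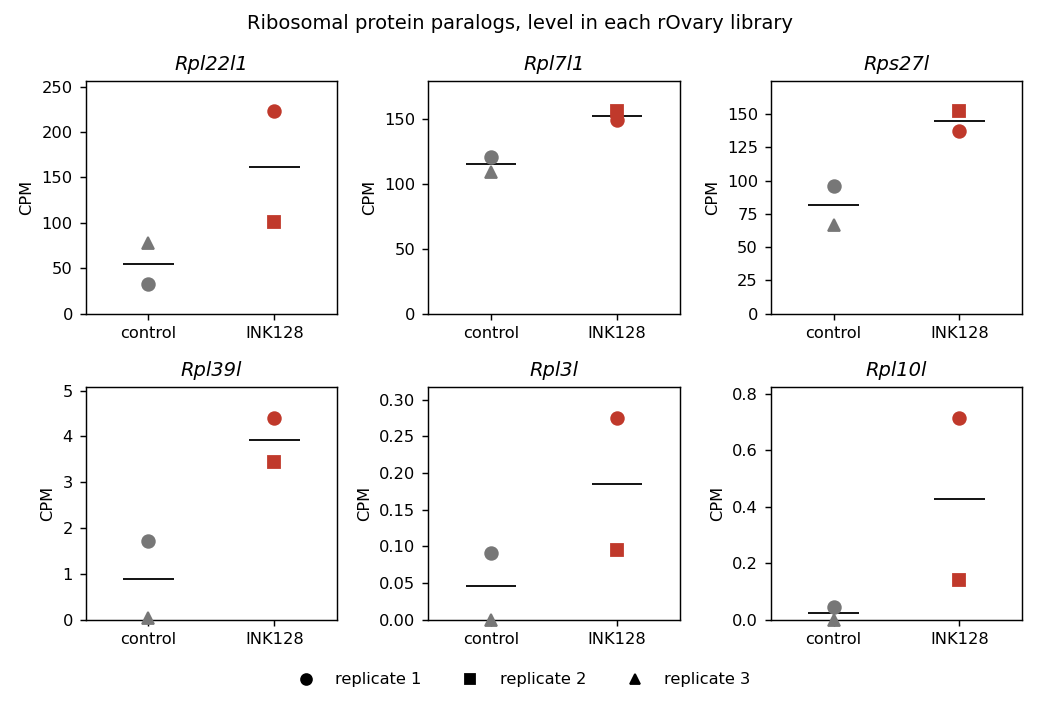
CPM (y axes, each from 0 and on its own scale) of the 6 paralogs in the 2 control and 2 INK128 libraries; points are libraries, symbols are replicate numbers and lines are group means. The groups do not overlap for the 4 tested genes (Rpl22l1, Rpl7l1, Rps27l and Rpl39l), the replicates lie far apart for Rpl22l1 and close together for Rpl7l1, and Rpl3l and Rpl10l stay below 1 CPM.

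Rpl22l1 (chr3:28805436-28807424, plus strand) had 4039 and 2126 counts with INK128 replicates 1 and 2, and 710 and 1790 counts in control replicates 1 and 3. In CPM these were 223 and 100 with INK128 and 32.3 and 77.5 in controls. INK128 replicate 1 was the highest and control replicate 1 the lowest, and the groups did not overlap, although INK128 replicate 2 stood nearer to control replicate 3 than to its own replicate. The means were 162 ± 86.4 CPM and 54.9 ± 32.0 CPM (SD, n = 2 each). The fitted difference (log2) was 1.56 ± 0.59 (SE), with an adjusted p = 0.136 by edgeR and 0.0294 by DESeq2. The INK128 libraries differed from each other 2.22-fold, a gap wider than that of Rpl22l1 in only 0.885% of the genes tested. The controls differed 2.40-fold, and 9.77% of genes had a wider gap. Without INK128 replicate 1 it was 0.86 (adjusted p = 0.519), without INK128 replicate 2 it was 2.01 (adjusted p = 0.438), without control replicate 1 it was 1.06 (adjusted p = 0.0318), and without control replicate 3 it was 2.32 (adjusted p = 0.0007, all edgeR). In each fit that leaves out a library, here and for the other genes, the group of 1 library is assumed to vary as the other pair does.

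The gene most like Rpl22l1 over the 4 libraries was Gm33051, an antisense RNA gene that shares 159 exon bases with it on the other strand. Its counts were 3572, 1722, 611 and 1563 in INK128 replicates 1 and 2 and control replicates 1 and 3, or 81.0% to 88.4% of those of Rpl22l1 in each library. The antisense gene was at 1.54 ± 0.62 (SE, log2) with an adjusted p = 0.151 by edgeR and 0.04 by DESeq2. The library kit does not mark the strand, so reads of the 2 genes cannot be told apart where they overlap. With both counts added, the log2 ratio of the group means was 1.55, against 1.56 for Rpl22l1 by itself. As Gm33051 kept nearly the same proportion to Rpl22l1 in each library, this sum could hardly differ. It cannot show which gene the reads came from. The pseudogene Gm15421, which shares sequence with Rpl22l1, had 80, 88, 176 and 78 counts in the same order and so was highest in the library where Rpl22l1 was lowest. The next most similar patterns were those of Gm14303 and Wdr5b, at distances of 0.27 and 0.36 in centred log2 CPM over 4 libraries, where Gm33051 was at 0.10.

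**Figure D2:**
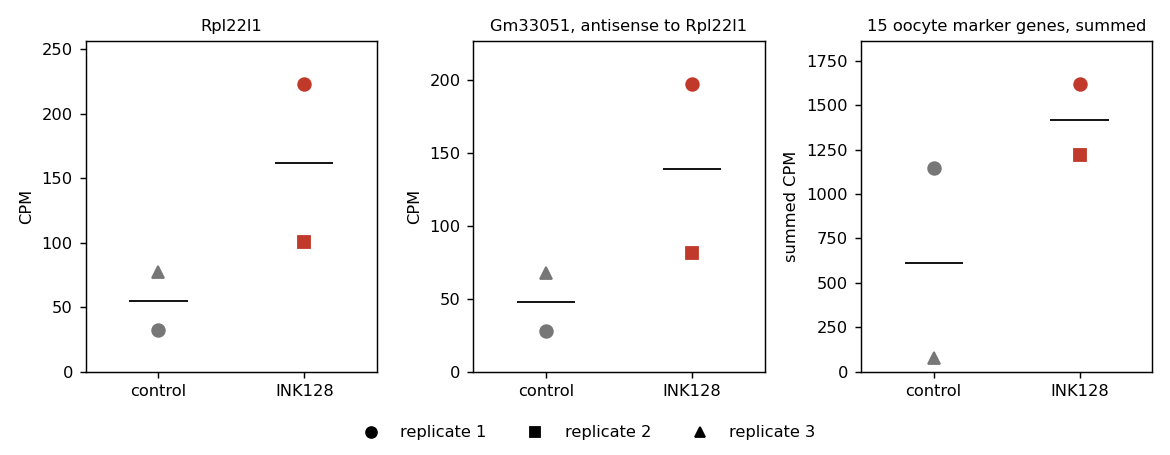
CPM (y axes from 0) of Rpl22l1 and of the antisense gene Gm33051, and the summed CPM of 15 oocyte markers, in the 2 control and 2 INK128 libraries; points are libraries and lines are group means. Rpl22l1 and Gm33051 order the libraries alike, and the oocyte markers are at 75.4 CPM in control replicate 3 against 1145 to 1618 CPM in the others.

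Rpl7l1 (chr17:46773907-46782672, minus strand) was the steadiest of the paralogs. It had 2708 and 3305 counts with INK128 and 2658 and 2532 counts in control replicates 1 and 3, or 149 and 156 CPM against 121 and 110 CPM. The groups did not overlap, and replicates differed 1.05-fold with INK128 and 1.10-fold in controls. The means were 153 ± 4.85 CPM and 115 ± 7.92 CPM (SD, n = 2 each). On the log2 scale the difference was 0.41 ± 0.17 (SE), under the fold limit, with an adjusted p = 0.155 by edgeR and 0.113 by DESeq2. It stayed between 0.25 and 0.48 and was not called under any of 16 other settings. The genes nearest to Rpl7l1 in pattern were Serpinb6a, Stk16 and Zdhhc18, at distances of 0.01 to 0.02 over 4 libraries.

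Rps27l had 2494 and 3216 counts with INK128 and 2112 and 1542 counts in control replicates 1 and 3. In CPM these were 138 and 152 against 96.0 and 66.8, and the groups did not overlap. The means were 145 ± 10.2 CPM with INK128 and 81.4 ± 20.7 CPM in controls (SD, n = 2 each). Its fitted log2 difference was 0.83 ± 0.24 (SE), with an adjusted p = 0.085 by edgeR and 0.02 by DESeq2. It was 1.12 without control replicate 1 (adjusted p = 0.001) and 0.59 without control replicate 3 (adjusted p = 0.0265), but 0.89 without INK128 replicate 1 (adjusted p = 0.4) and 0.75 without INK128 replicate 2 (adjusted p = 0.49, all edgeR). In an edgeR fit with offsets for exon length it was 0.07 (adjusted p = 0.852). Rps27l is a short gene, with 816 exon bases against a median of 4467 over the genes tested. Its nearest genes in pattern were Ptbp2, Exosc8 and Psma7, at distances of 0.03 to 0.07 over 4 libraries.

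Since Rps27l is known as a p53 target, it was set beside a list of 24 other p53 targets, of which 19 were tested. Of these, 1 was called higher and 0 lower by edgeR, against 3.18% and 3.19% of all genes. Their median log2 fold change was -0.50, against -0.03 over all genes tested. In 12 of the 19 both INK128 libraries lay below both controls, against 34.0% of all genes tested, and in 3 they lay above, as Rps27l did, against 34.5% of all genes. Without control replicate 1, 7 of the 19 were called lower, against 23.2% of all genes, and 3 higher, against 22.7%. Without control replicate 3, 6 were called lower, against 21.4% of all genes, and without either INK128 library 0 were called. Cdkn1a, the cell cycle inhibitor p21, had 13.7 and 18.3 CPM with INK128 and 66.3 and 28.1 CPM in controls (log2 fold change -1.56, adjusted p = 0.0952, edgeR). The size of this change moved with single controls, to -0.81 without control replicate 1 and -2.05 without control replicate 3. Ccng1, cyclin G1, had 953 and 1013 counts against 2819 and 2217 counts (log2 fold change -1.16, adjusted p = 0.0507, edgeR). Mdm2, which marks p53 for degradation, had 43.5 and 51.2 CPM against 61.8 and 57.1 CPM (log2 fold change -0.33, adjusted p = 0.26, edgeR). All 3 were lower in both INK128 libraries, where Rps27l was higher, and none of the 3 passed the edgeR test. The part of p53 in the level of Rps27l was not tested. DESeq2, which called 15.1% of all genes lower, called Cdkn1a (adjusted p = 0.0137) and Ccng1 (adjusted p = 0.000253) lower and did not call Mdm2 (adjusted p = 0.312).

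Rpl39l was scarce and its level hung on a single library. It had 80 and 73 counts with INK128, 38 in control replicate 1 and 1 in control replicate 3, which is under the floor of 3 counts. In CPM these were 4.41 and 3.45 with INK128 and 1.73 and 0.0433 in controls. The groups did not overlap, and the controls stood further apart than the INK128 libraries. The fitted log2 value was 2.20 ± 1.38 (SE), with an adjusted p = 0.315 by edgeR over the genes above 1 CPM, and with 1 count in a control it depends on the prior count of the fit. Without control replicate 3 it was 1.23 (adjusted p = 0.0631, edgeR). Without control replicate 1 it was 6.36 (adjusted p = 7.66e-05, edgeR), but the control arm is then a single library with 1 count, so neither the size nor the p can be relied on. Control replicate 3 was also the library with the fewest oocyte marker counts, 1741 against 25179 to 29339, and the fewest counts of 14 spermatogenic cell markers, 13 against 56 to 93. The part of either cell type in the Rpl39l counts was not tested.

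Rpl10l (chr12:66283379-66284401, minus strand), the intronless germ cell copy of Rpl10, had 13 and 3 counts with INK128, 1 in control replicate 1 and 0 in control replicate 3. Only INK128 replicate 1 was above the floor of 3 counts. Rpl3l (chr17:24727820-24736143, plus strand), the muscle copy of Rpl3, had 5 and 2 counts with INK128 and 2 and 0 counts in controls, again with only INK128 replicate 1 above the floor. The 16 striated muscle markers summed to 12.7 to 26.6 CPM over the libraries. With 17 and 9 counts over all libraries, Rpl10l and Rpl3l had too few counts to test, and no fold change is given.

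Per transcript length, Rpl22l1 and Rps27l were the highest of the paralogs, and Rpl39l, Rpl10l and Rpl3l the lowest. Rpl22l1 stood at 58.5 to 403 CPM per kilobase and Rps27l at 134 to 305, so these 2 overlapped. Rpl7l1, with 42.1 to 59.9 CPM per kilobase, lay below both within every library, although its INK128 replicate 2 reached the level of Rpl22l1 in control replicate 1. This order depends on the transcript, since per kilobase of all annotated exons Rpl22l1 was at 16.2 CPM and Rpl7l1 at 34.6 CPM in control replicate 1. Rpl39l, at 0.054 to 5.48, lay below all 3 in each library. Rpl10l and Rpl3l were at 0 to 0.70 and 0 to 0.20 CPM per kilobase and could not be ordered.

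All 6 parents were abundant, and like the tested paralogs all 6 were higher in both INK128-treated rOvaries than in either control, against 34.5% of all genes. By edgeR 3 of the 6 were DEGs, against 3.18% of all genes called higher. Rpl22 averaged 637 ± 38.0 CPM with INK128 and 273 ± 25.3 CPM in controls (SD, n = 2 each), a difference of 1.22 ± 0.19 (SE, log2) at an adjusted p = 0.0464 by edgeR. Rpl7 went from 824 ± 71.9 to 1925 ± 43.8 CPM (SD, n = 2 each) and by a like 1.22 ± 0.18 (SE, log2), again with an adjusted p = 0.0464 by edgeR. Rpl10, on the X chromosome, was the third, at 1.17 ± 0.19 (SE) with an adjusted p = 0.0484 by edgeR. Rpl3, Rps27 and Rpl39 were at 1.03, 1.51 and 1.56 with adjusted p of 0.0515, 0.0534 and 0.0641 (edgeR). DESeq2 called all 6, and 13.6% of all genes higher. By edgeR 0 of the 6, and 0 of all genes, were called without either INK128 library. All 6 were called without control replicate 1, where 22.7% of all genes were called higher, and without control replicate 3, where 21.2% were. Rpl10 was not called with library totals in place of TMM (adjusted p = 0.0504), and Rpl3 was called with upper quartile scaling (adjusted p = 0.0474, both edgeR). With offsets for exon length 0 of the 6, and 0 of all genes, were called higher, and the 6 lay between 0.66 and 0.93.

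Rps27rt, the retrogene whose reads cannot be separated from those of Rps27 over the coding sequence, had 1737 and 2557 counts with INK128 and 1244 and 855 in controls. Its log2 difference was 1.21 at an adjusted p = 0.0618 by edgeR and 0.00265 by DESeq2. Its counts came to a fraction of those of Rps27, which had 15096 and 12707 with INK128 and 4412 and 6985 in controls.

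The core list of 79 ribosomal protein genes, parents included, gave the range in which the paralogs can be read. Of these, 67 were called higher and 0 lower by edgeR, against 3.18% of all genes called higher, and all 79 had both INK128 libraries above both controls, against 34.5% of all genes. Without either INK128 library 0 of the 79 were called, and 0 of all genes. Their log2 fold changes ran from 0.94 to 2.15 with a median of 1.48. Rpl7l1 and Rps27l lay below all 79, while Rpl22l1 lay above 51 and below 28 of them. The place of Rpl22l1 moved with single libraries, since it lay below all 79 without INK128 replicate 1, above 3 without control replicate 1, and above 78 without INK128 replicate 2 or control replicate 3. Rps27l lay above 5 of the 79 without control replicate 1, and Rpl7l1 lay below all 79 without any 1 library. With offsets for exon length the core median was 0.94, and Rpl22l1, Rpl7l1 and Rps27l were at 1.02, 0.25 and 0.07.

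Among 44 ribosome assembly factors, a group to which RPL7L1 is related in function, 2 were called higher and 0 lower by edgeR, against 3.18% of all genes called higher, with a median log2 fold change of 0.38. In 29 of the 44 both INK128 libraries lay above both controls, against 34.5% of all genes. Without control replicate 1, 21 of the 44 were called higher, where 22.7% of all genes were. Without control replicate 3 the count was 15, where 21.2% of all genes were called higher, and without either INK128 library it was 0. Rpl7l1, at 0.41, lay near this median. Fbl, the methyltransferase fibrillarin, was at 1.13 (adjusted p = 0.0516, edgeR) and Npm1, a nucleolar chaperone, at 0.80 (adjusted p = 0.0591, edgeR). DESeq2, which called 13.6% of all genes higher, called Fbl (adjusted p = 0.000194) and Npm1 (adjusted p = 0.000242). Bop1, a factor of large subunit maturation, was at 0.05 (adjusted p = 0.894 by edgeR and 0.932 by DESeq2). It had 46.6 and 51.3 CPM with INK128 and 56.0 and 38.6 CPM in controls, so that its groups overlapped. Its sign turned with offsets for exon length (-0.23) and with library totals in place of TMM (-0.09).

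**Figure D3:**
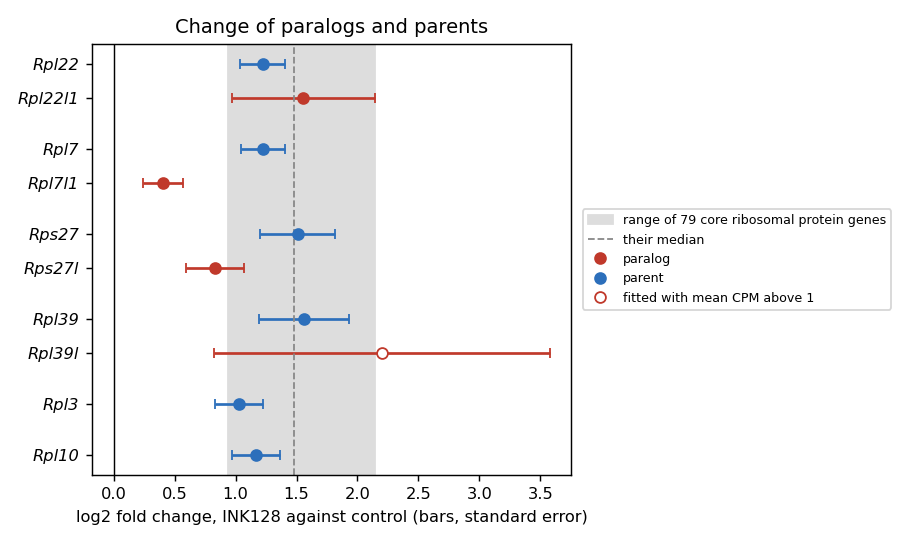
Log2 fold change (x axis, INK128 against control; bars are standard errors) of the 4 tested paralogs in red and the 6 parents in blue; the grey band is the range of 79 core ribosomal protein genes and the dashed line their median. Rpl7l1 and Rps27l lie left of the band, from 0.94 to 2.15, Rpl22l1 lies inside it, and the open point of Rpl39l has a standard error of 1.38.

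The balance within each pair was measured as the paralog's share of the summed per-length level of paralog and parent, with a 95% exact binomial interval that covers counting error only. It depends on the transcript chosen for the length (552 bases for Rpl22l1 and 2051 for Rpl22, for example), and so does the size of a difference between shares, while length cancels in the difference of log2 ratios between libraries and in their order. Exact two-sided permutation tests of the log2 ratio of paralog to parent were run for 4 pairs, and with 2 libraries against 2 they cannot give a p below 0.333.

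Rpl7l1 made up less of its pair with Rpl7 in both INK128 libraries than in either control. Its share was 3.40% (3.27 to 3.53) and 3.44% (3.32 to 3.56) with INK128, and 5.81% (5.59 to 6.03) and 5.95% (5.72 to 6.19) in control replicates 1 and 3. The intervals overlapped within each group and not between the groups. The log2 ratio averaged -4.82 ± 0.01 with INK128 and -4.00 ± 0.03 in controls (SD, n = 2 each). The difference of -0.82 was larger than the spread between replicates, at the smallest p that the exact permutation test can give (p = 0.333). It ran from -0.84 to -0.80 when each library was left out in turn. Both genes were higher with INK128, Rpl7 by 1.22 and Rpl7l1 by 0.41 (log2, edgeR). The median over all genes tested was -0.03, so a gene at that median would also fall against Rpl7. Of the 4 pairs, only Rpl7l1 with Rpl7 had groups that did not overlap. How many other genes would separate in the same way against Rpl7 was not computed.

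Rpl22l1 made up 55.5% and 38.0% of its pair with INK128 and 32.0% and 49.8% in control replicates 1 and 3, so that the groups overlapped. The log2 ratio differed by 0.35 (exact permutation p = 0.667), and it was -0.16 without INK128 replicate 1 and -0.18 without control replicate 1. Rps27l made up 10.3% and 14.9% with INK128 against 24.9% and 13.2% in controls, where control replicate 1 stood apart from the other 3 libraries. The log2 ratio differed by -0.67 (exact permutation p = 0.667), and ran from -1.23 without control replicate 3, where the groups separated, to -0.11 without control replicate 1. Rpl39l stayed under 1% of its pair in all 4 libraries, with 0.42% and 0.53% with INK128, 0.79% in control replicate 1 and 0.012% (0.00031 to 0.068) in control replicate 3. The log2 ratio differed by 2.27 (exact permutation p = 1.0), and by -0.74 without control replicate 3.

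**Figure D4:**
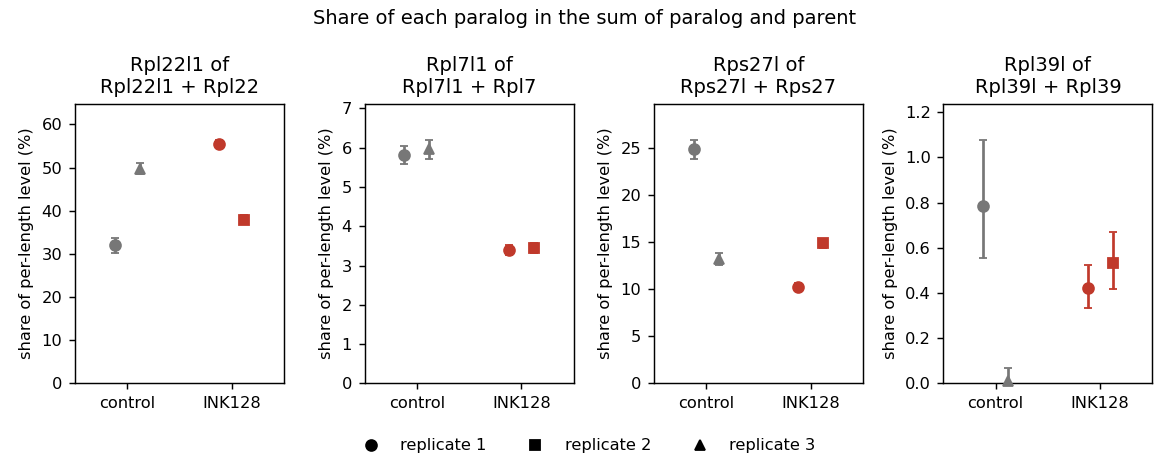
Share of each paralog in the summed per-length level of paralog and parent (y axes in percent, from 0), by library and group; bars are 95% exact binomial intervals from the counts. For Rpl7l1 the control libraries (5.81% and 5.95%) lie above the INK128 libraries (3.40% and 3.44%), and for the other 3 pairs the groups overlap.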

How the data were processed

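The members and gene lists were chosen with earlier results of these data known. Trimming (Trimmomatic), alignment to mm10 (Hisat2) and counting (featureCounts) were done by the authors, who deposited raw counts per gene symbol for each library and tested them with DESeq2. The strand setting and read length were not given in the sources used here. Columns were matched to libraries by name. Totals were 19130209 to 23029089 counts per library.

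CPM used TMM factors and each library's total over the genes of the main test (edgeR 4.0.16, R 4.3.3). The filters on mean CPM used plain CPM, scaled to the whole library without TMM factors. The main test was the quasi-likelihood test of edgeR over the 11758 genes whose mean CPM exceeded 10, and p-values were adjusted over all of them (Benjamini-Hochberg). A DEG needed an adjusted p under 0.05 and a change over 1.5-fold, the study's thresholds. Standard errors (SE) were the absolute log2 change divided by the root of F. Genes above 1 CPM were tested in a second fit of 17631 genes. Alternatives were DESeq2 1.42.0, limma voom (limma 3.58.1), other scalings, filters and thresholds, offsets for exon length, and leaving out each library. Adding Gm33051 to Rpl22l1 was chosen after seeing the data. Named genes were the 6 paralogs, their parents, 3 genes each of the p53 and assembly lists, and the 3 nearest in pattern to each paralog above 10 CPM by Euclidean distance of centred log2 CPM (counts plus 0.5 where ratios to the parent were varied). Rps27rt, Gm33051 and Gm15421 were named after their sequence overlap was seen. Positions, transcripts and lengths came from GENCODE M21, and transcript starts from RefSeq GRCm38.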

Additional observations from a re-analysis of the deposited data

How the results depend on the processing

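Of the 3 paralogs above 10 CPM, 2 were called higher with DESeq2 and with genes of at least 1 count, and 1 was called at an adjusted p below 0.1, against 0 in the fit reported. Leaving out each library in turn gave 0 to 2 called paralogs, 0 to 6 called parents, and 0 to 2664 genes called higher and 0 to 2723 lower over all genes. The calls were 0 without either INK128 library and rose without either control. Parents called higher were 6 with DESeq2, with CPM above 10 in all libraries, with at least 1 count and at an adjusted p below 0.1, 0 with limma voom, with a mean CPM above 1 and with length offsets, 2 with library totals and 4 with upper quartile scaling. Over all genes, DESeq2 called 1595 higher (13.6%) and 1772 lower (15.1%). Those called higher and lower were 803 and 717 with CPM above 10 in all libraries, and 1152 and 1953 with at least 1 count. At an adjusted p below 0.1 they were 1540 and 1591. They were 0 and 0 with limma voom, a mean CPM above 1 and length offsets. Upper quartile scaling gave 567 higher and library totals 627 lower. Library totals moved the median of all genes to -0.16.

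Core ribosomal protein genes called higher were 0 with length offsets and 0 to 79 without single libraries. Assembly factors called higher were 14 with DESeq2, 0 with length offsets and 0 to 21 without single libraries, with 0 to 1 lower. For p53 targets, 5 were lower with DESeq2, 0 were higher with length offsets, and 0 to 3 were higher and 0 to 7 lower without single libraries. The log2 fold change of Bop1 was -0.087 with library totals, -0.23 with length offsets, and -0.19 to 0.34 without single libraries (-0.03 without INK128 replicate 2, -0.19 without control replicate 3).

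The log2 ratio of Rpl22l1 to Rpl22 differed by -0.18 to 0.89 (-0.16 without INK128 replicate 1, -0.18 without control replicate 1), that of Rpl39l to Rpl39 by -0.74 to 5.28, and that of Rps27l to Rps27 by -1.23 to -0.11, without single libraries. The 4 tested paralogs kept a positive log2 fold change under every setting in which they were fitted (Rpl39l has none with CPM above 10 in all libraries), with ranges of 0.86 to 2.32 for Rpl22l1, 0.25 to 0.48 for Rpl7l1, 0.07 to 1.12 for Rps27l and 1.23 to 6.36 for Rpl39l. The causes of these changes were not tested, beyond the smaller sets of libraries or genes that some settings use. No paired analysis was possible because the groups share only replicate number 1. Rpl3l and Rpl10l had too few counts to test, and with 2 libraries a group no exact test of a single value could pass.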
